A study of Mus musculus with 11 samples.

Results

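Pdk4 and the enzymes through which pyruvate enters mitochondrial metabolism were followed in mouse 3T3-L1 cells given thiazolidinedione drugs. The 7 genes are Pdk4, Pdha1, Pdhb, Dlat, Dld, Cs and Pcx, and every probe set annotated to any of them was taken, whatever its signal. They have 9 of the 12488 probe sets on the array. Another 4 probe sets of pyruvate carboxylase are array controls and are given apart.

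Pioglitazone was given at 20 µM to the cells of 2 arrays, rosiglitazone at 1 µM to those of 3 and troglitazone at 20 µM to those of 3. Vehicle cells, with 0.1% DMSO alone, gave 3 arrays, and exposure lasted 24 h in every group. 3T3-L1 is a clonal fibroblast line that can be turned into adipocytes in culture. The labels name no allele or transgene and do not say whether these cells had been differentiated. They also do not say whether the arrays came from separate cultures, so the p-values measure only the spread between these samples. The titles place replicates 1 and 2 in set 1 (8 arrays) and replicate 4 in set 2 (3 arrays, none of them pioglitazone).

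Pyruvate dehydrogenase turns pyruvate into acetyl-CoA inside mitochondria. Pdha1 and Pdhb form its decarboxylase, Dlat is its acetyltransferase and Dld its dihydrolipoamide dehydrogenase. Pdk4 is a kinase that phosphorylates the decarboxylase and shuts the complex off, and it is known as a target of PPAR, FoxO and glucocorticoid receptors in fasting muscle, heart and fat. Pyruvate carboxylase, Pcx, takes pyruvate to oxaloacetate instead, and citrate synthase, Cs, joins oxaloacetate with acetyl-CoA. In adipocytes the resulting citrate is exported as a source of carbon for fatty acids.

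The promoters of Pdk4 and Cs are shown because these were the members that passed a test below. Each is RefSeq sequence of the GRCm38.p6 build, from 250 bases before to 50 after the start of the gene, read in the direction of the gene. Pdk4 lies at chr6:5496229-5496528 on the minus strand and Cs at chr10:128337477-128337776 on the plus strand. Capitals mark matches to CCAAT and GGGCGG on either strand.
Pdk4 promoter: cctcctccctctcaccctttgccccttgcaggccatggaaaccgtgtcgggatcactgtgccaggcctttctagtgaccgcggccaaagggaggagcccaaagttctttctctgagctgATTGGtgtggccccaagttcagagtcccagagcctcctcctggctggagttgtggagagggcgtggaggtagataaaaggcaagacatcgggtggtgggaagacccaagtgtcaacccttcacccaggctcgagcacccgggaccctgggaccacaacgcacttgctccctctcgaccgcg
Cs promoter: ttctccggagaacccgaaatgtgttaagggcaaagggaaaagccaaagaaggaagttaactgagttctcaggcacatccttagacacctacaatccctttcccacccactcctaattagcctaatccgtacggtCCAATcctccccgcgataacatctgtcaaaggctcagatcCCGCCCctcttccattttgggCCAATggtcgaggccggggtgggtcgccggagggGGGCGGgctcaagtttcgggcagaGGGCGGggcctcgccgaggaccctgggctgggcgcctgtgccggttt

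The Pdk4 window held 1 CCAAT, on the reverse strand and starting at base -131 from the start of the gene, and no GGGCGG. The Cs window held 2 CCAAT, from bases -116 and -55, and 3 GGGCGG, from bases -76, -21 and 4. Over the 8 promoters listed for the 7 genes, of which Pcx has 2, CCAAT was found in 6 and GGGCGG in 4. Of the 32851 mouse promoters of the same length, 37.4% held CCAAT and 35.7% held GGGCGG.

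Letters of nuclear receptor and forkhead sites were searched on both strands as well. The direct repeat of AGGTCA, any base and AGGTCA was in 0 of the 8 member promoters and in 0.0396% of all promoters, and the forkhead letters GTAAACA were in 0 of 8 and in 3.65%. The half-site AGGTCA, which the direct repeat contains, was in 1 of 8, a Pcx promoter, and in 16.3% of all. CACGTG was in 1 of 8 (7.15% of all), GCGCA, any base and GCGC in 1 (4.60%) and CCGGAAGT in 0 (3.89%). A match describes letters in this window only. The GC content was 60.7% for Pdk4 and 58.7% for Cs, against a median of 52.7% over all promoters.

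Signals are the deposited intensities on a linear scale. Single values were compared between groups within a probe set and not between probe sets. The marker sums below add signals over probe sets, so the brightest probe sets weigh most in them. All 99 member values lay above the floor of 73.7, under which a signal was raised to it, and all 9 member probe sets were among the 11739 tested. "Rose" and "fell" are used for a limma adjusted p under 0.05, with the set as a term in the model and adjustment over all tested probe sets. Rosiglitazone replicate 2 correlated least with the others (a median r of 0.833, against 0.874 to 0.896 for the rest). Pioglitazone replicate 2 had a beta-actin control 3' to 5' signal ratio of 4.86. This ratio was 1.79 to 2.27 on the rest of set 1 and 3.74 to 3.90 on the set 2 arrays. The 3 drug groups share the same vehicle arrays, so their values are given side by side.

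Markers of cell types were taken where a probe set exceeded the floor on 2 or more arrays, which left 8 of 10 for adipocytes. Adipoq, the adipocyte hormone adiponectin, averaged 40847 ± 5301 with pioglitazone (SD, n = 2), 46093 ± 4233 with rosiglitazone (n = 3), 33709 ± 4895 with troglitazone (n = 3) and 46879.8 ± 4760.5 with vehicle (n = 3), and did not pass. The summed signal of the 8 ran from 88182 to 140660 with the drugs, against 98897 to 124124 with vehicle. The members did not run alike: with each drug 1 of them rose and 1 fell. Of all tested probe sets 0.63%, 0.784% and 0.775% rose with pioglitazone, rosiglitazone and troglitazone, and 0.273%, 0.571% and 0.554% fell. Cidec, a lipid droplet protein, averaged 26647 ± 1451, 23922 ± 3531 and 22283 ± 1752 with pioglitazone, rosiglitazone and troglitazone, against 10771 ± 2234 with vehicle, and rose by 1.43, 1.16 and 1.07 on the log2 scale. Pparg, the nuclear receptor that these drugs bind, averaged 486.8 ± 34.8, 805.5 ± 216 and 584.5 ± 137, against 2182 ± 618 with vehicle. Its log2 differences were -1.93 (adjusted p = 0.000901), -1.43 (0.00204) and -1.89 (0.000133), a fall with each drug. No left-out array ended these calls of Cidec or Pparg.

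All 8 preadipocyte and fibroblast markers met the same rule. Their summed signal was 7014 to 7222 with pioglitazone, 7520 to 8971 with rosiglitazone and 5350.3 to 8194 with troglitazone, all below the 11112 to 12275 of the vehicle arrays. Of the 8, 1 fell with pioglitazone (0.273% of all tested probe sets), 1 with rosiglitazone (0.571%) and 3 with troglitazone (0.554%). Fn1, the matrix protein fibronectin, fell with each drug (-1.08, -0.94 and -1.04 on the log2 scale, adjusted p 0.0269, 0.0203 and 0.00941), and Col1a1 and Col3a1, collagen chains, fell with troglitazone (-1.27 and -1.29, adjusted p 0.0240 and 0.00459). Col1a2, another collagen chain, averaged 2234.5 ± 457, 2676 ± 812 and 2126 ± 782 with pioglitazone, rosiglitazone and troglitazone, against 2270 ± 387 with vehicle, and did not pass. A dimmer Col1a1 probe set did not pass with any drug. Nor did the other Col3a1 probe sets, at -0.17 and -1.58 on the log2 scale with troglitazone (limma adjusted p 0.932 and 0.504).

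Several of these calls ended on leaving out single arrays, while the log2 differences kept their sign. That of Fn1 with pioglitazone ended without pioglitazone or rosiglitazone replicate 1 or any troglitazone or vehicle array (adjusted p up to 0.196). With rosiglitazone it ended without rosiglitazone replicate 1 or 2 or any vehicle array (up to 0.140), and with troglitazone without replicate 1 or 4 of troglitazone or 1 or 2 of vehicle (up to 0.0895). The Col1a1 call ended without rosiglitazone replicate 1, troglitazone replicate 2 or 4 or vehicle replicate 1 or 4 (up to 0.260), and the Col3a1 call without troglitazone or vehicle replicate 4 (up to 0.0723).

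Skeletal muscle markers, 6 of 7 meeting the rule, summed to 1354 to 2834 with the drugs, against 1635 to 1779 with vehicle, and none passed. The shares of all tested probe sets that rose and fell are given above with the adipocyte markers. Macrophage markers, 4 of 7, summed to 1381 to 3863, against 1942 to 3401. Of these, Adgre1, a defining macrophage marker, was between 9.1 and 31.3 on the troglitazone arrays and between 10.7 and 113.2 with vehicle, so under the floor on all troglitazone arrays, and Cd14, a receptor for endotoxin, fell with troglitazone (log2 difference -1.49, adjusted p = 0.0246). The Cd14 call ended without rosiglitazone replicate 1, troglitazone replicate 1 or 2 or any vehicle array (up to 0.182). The median log2 difference of the 4 macrophage markers was -0.34 with pioglitazone, 0.22 with rosiglitazone and -0.08 with troglitazone. Over all tested probe sets it was -0.08, 0 and -0.03. The 4 brown adipocyte markers summed to 3211 to 6713 with the drugs, against 1914 to 3801 with vehicle, and most of that was Cidea, a lipid droplet protein. Cidea rose by 1.02 with rosiglitazone (log2, adjusted p = 0.00369) and by 1.13 with troglitazone (0.00119) and did not pass with pioglitazone, while Ucp1, the uncoupling protein that defines brown fat, averaged 103.3 to 191.7 with the drugs and 85.4 with vehicle. The part of all these markers in the results below was not tested, and in bulk RNA fewer cells of a type and less transcript per cell cannot be told apart.

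Pdk4 was higher with each drug. The signal was 2128.7 and 3362.9 on the 2 pioglitazone arrays. With rosiglitazone it was 2453.7, 1262.8 and 3553.7, in the order of replicates 1, 2 and 4. With troglitazone it was 2571.2, 3364.6 and 3768.8, against 674.3, 926.0 and 830.8 with vehicle. All 8 treated arrays lay above all 3 vehicle arrays, and the lowest of the 8 was rosiglitazone replicate 2, the array that stood apart. Group means were 2746 ± 873 with pioglitazone (SD, n = 2), 2423 ± 1146 with rosiglitazone (n = 3), 3235 ± 609 with troglitazone (n = 3) and 810.4 ± 127 with vehicle (n = 3). Against the vehicle mean of its own set, the treated signal ran from 1.60-fold in rosiglitazone replicate 2 to 4.54-fold in troglitazone replicate 4.

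**Figure D1:**
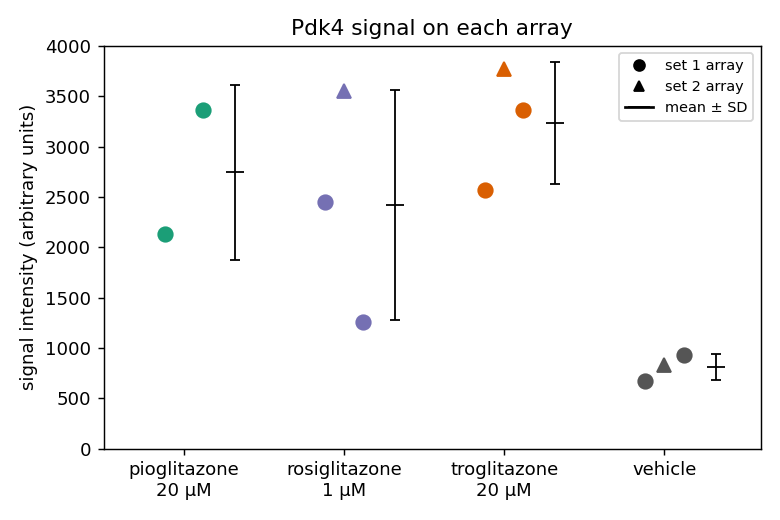
Pdk4 signal intensity (arbitrary units, linear axis from 0) on each of the 11 arrays, by group. Circles are set 1 arrays, triangles set 2 arrays, and the bars beside them give the mean ± SD; each treated array sits above the highest vehicle array, at 926.0.

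With pioglitazone, Pdk4 rose 3.72-fold, a log2 difference of 1.90 ± 0.31 (SE, n = 2 against 3, 95% interval 1.23 to 2.57, limma adjusted p = 0.00715). This was the 38th smallest p of the 11739 probe sets. The call ended without pioglitazone replicate 2 (1.57, adjusted p = 0.101) or without vehicle replicate 1 (1.84, adjusted p = 0.0668). Pioglitazone replicate 2, the brighter of the 2 pioglitazone arrays on Pdk4, was also the set 1 array with the high beta-actin control 3' to 5' ratio (4.86). Over all 25 alternatives the Pdk4 difference ran from 1.51 to 2.23 and its adjusted p from 0.00448 to 0.408.

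With rosiglitazone, at its lower dose, Pdk4 rose 2.77-fold (log2 difference 1.47 ± 0.27, SE, n = 3 against 3, 95% interval 0.89 to 2.05, adjusted p = 0.0125). The call ended without rosiglitazone replicate 1 (1.30, adjusted p = 0.102) or replicate 4 (1.20, 0.131), and without vehicle replicate 1 (1.42, 0.0884) or replicate 4 (1.26, 0.129). Without replicate 2, the array that stood apart, the difference was 1.83 (adjusted p = 0.00662). Over 25 alternatives the adjusted p ran from 0.00543 to 0.326.

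Troglitazone gave a rise of 3.98-fold (log2 difference 1.99 ± 0.27, SE, n = 3 against 3, 95% interval 1.41 to 2.57, adjusted p = 0.000765). No array left out in turn ended this call, and the difference then ran from 1.79 to 2.19. The mean over the 3 drugs was 1.79 ± 0.23 (3.45-fold, adjusted p = 0.000389) and also passed with each array left out, at 1.60 or more. In set 1 alone, with 2 arrays a group, neither passed: 1.90 for troglitazone (adjusted p = 0.0963) and 1.60 for the mean (0.0574).

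Within set 1, Pdk4 was 3.39-fold of vehicle with pioglitazone, 2.23-fold with rosiglitazone and 3.72-fold with troglitazone. In set 2, with 1 array a group, it was 4.28-fold with rosiglitazone and 4.54-fold with troglitazone. The difference between sets was 0.94 ± 0.62 (log2, SE) for rosiglitazone and 0.29 ± 0.62 for troglitazone, with an adjusted p of 1 for both.

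Troglitazone and pioglitazone, which carry a chroman ring and a pyridine ring beside the shared thiazolidinedione, were the only pair given at matched dose and time. Pdk4 was 0.10 ± 0.31 higher (log2 difference, SE, n = 3 against 2) with troglitazone than with pioglitazone, with a 95% interval of -0.57 to 0.76 and an adjusted p of 0.995. Their signals overlapped. The sign turned without pioglitazone replicate 1 (-0.23) or troglitazone replicate 2 (-0.05). The interval is wide on both sides of 0, so it does not show that the drugs act alike on Pdk4.

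The decarboxylase subunits had smaller differences that did not pass. Pdha1, the catalytic subunit that Pdk4 phosphorylates, had signals of 3694.1 and 5190.3 with pioglitazone, of 3962.0, 4618.5 and 6792.5 with rosiglitazone, and of 4178.6, 4938.8 and 6377.7 with troglitazone, against 3613.7, 3013.6 and 4202.9 with vehicle. All 8 treated arrays were above the vehicle mean of their own set, by 1.12-fold to 1.62-fold, but 3 of them lay under the highest vehicle array. The log2 differences were 0.46 ± 0.18 with pioglitazone, 0.48 ± 0.16 with rosiglitazone and 0.51 ± 0.16 with troglitazone (SE), and none passed (limma adjusted p 0.388, 0.226 and 0.211). The mean of the 3 drugs gave 0.48 ± 0.13, with an adjusted p of 0.0868, and passed in 2 of 24 alternatives.

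Pdhb, the other decarboxylase subunit, had 3932.3 and 7210.2 with pioglitazone, 5424.2, 3725.8 and 8986.6 with rosiglitazone and 4824.0, 5388.3 and 7539.9 with troglitazone, against 4426.3, 4183.7 and 6295.4 with vehicle. The groups overlapped in every comparison. In each group with a set 2 array, that array was the brightest. The fitted differences were 0.36 ± 0.24, 0.21 ± 0.20 and 0.25 ± 0.20 (log2, SE) for pioglitazone, rosiglitazone and troglitazone, with adjusted p from 0.690 to 0.862.

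Dlat, the acetyltransferase core, was read by 2 probe sets. On the brighter the signal was 1637.3 and 1487.4 with pioglitazone, 1452.7, 1650.7 and 2205.2 with rosiglitazone and 1532.3, 1281.2 and 2004.0 with troglitazone, against 1139.1, 1496.8 and 1214.5 with vehicle. Vehicle replicate 2 reached into the range of each drug. Log2 differences were 0.39 ± 0.23, 0.45 ± 0.20 and 0.31 ± 0.20 (SE) for pioglitazone, rosiglitazone and troglitazone, and none passed (lowest adjusted p 0.426).

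The dimmer Dlat probe set scattered more. It read 675.6 and 282.9 with pioglitazone, 527.1, 189.1 and 84.6 with rosiglitazone and 390.0, 234.8 and 271.3 with troglitazone, against 182.4, 146.0 and 200.8 with vehicle. Pioglitazone and troglitazone arrays lay above all vehicle arrays, while rosiglitazone arrays lay on both sides. The standard errors, 0.72 with pioglitazone and 0.62 with the other drugs on the log2 scale, were larger than on the brighter probe set, and no difference passed (1.13, 0.22 and 0.74, adjusted p 0.680 to 0.940). In set 2 rosiglitazone was at 0.421-fold of vehicle on this probe set and at 1.82-fold on the brighter, so the 2 probe sets ran in opposite directions there.

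Dld regenerates the lipoyl arm of pyruvate dehydrogenase and serves other ketoacid dehydrogenases too. It read 1867.5 and 3494.6 with pioglitazone, 3118.9, 2509.6 and 3353.2 with rosiglitazone and 2732.5, 3345.4 and 2917.9 with troglitazone, against 2511.8, 2229.4 and 1926.4 with vehicle. The lowest troglitazone array was above the highest vehicle array, and rosiglitazone replicate 2 was just under it. Pioglitazone replicate 1 was the lowest of all 11 arrays. The differences of 0.20 ± 0.25 (pioglitazone), 0.43 ± 0.21 (rosiglitazone) and 0.44 ± 0.21 (troglitazone, log2, SE) did not pass (adjusted p 0.885, 0.514 and 0.639).

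**Figure D2:**
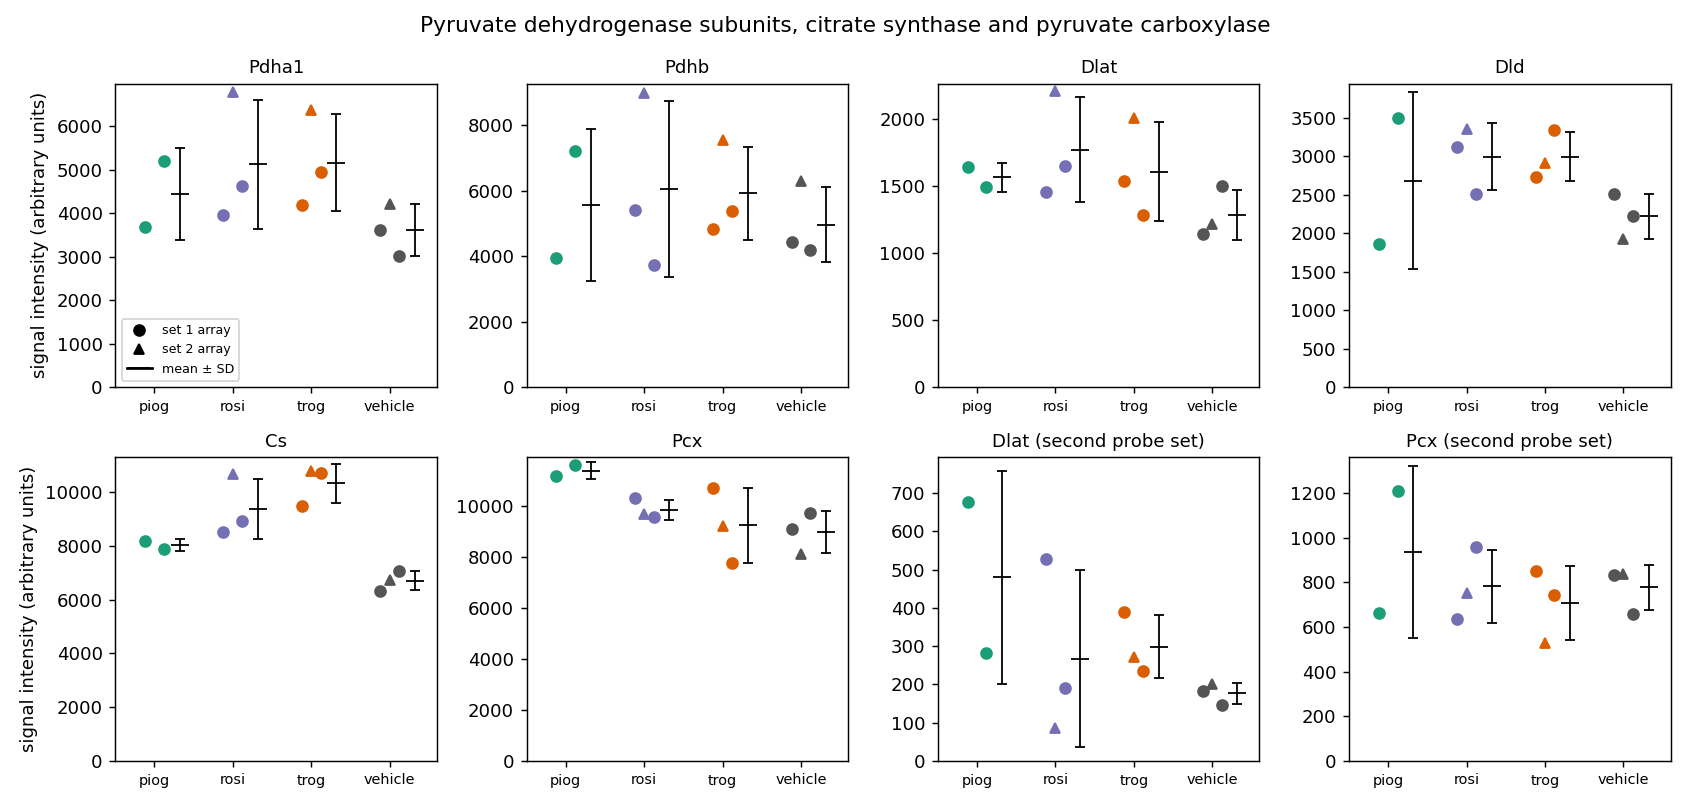
Signal intensity (arbitrary units, linear axes from 0) of the other 8 member probe sets on each array; piog, rosi and trog stand for the 3 drugs, circles for set 1, triangles for set 2, and bars for the mean ± SD of a group. Cs is the panel in which all 8 treated arrays lie above all 3 vehicle arrays, whose highest is at 7045.4.

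Cs was higher on every treated array, by less than Pdk4. The signal was 8173.5 and 7872.6 with pioglitazone. It was 8529.1, 8939.8 and 10655.6 with rosiglitazone and 9482.9, 10721.2 and 10770.5 with troglitazone, against 6336.8, 7045.4 and 6722.0 with vehicle. No treated array reached down to the vehicle arrays, and the fold over the vehicle mean of the own set ran from 1.18 to 1.60. Within set 1 Cs was 1.20-fold of vehicle with pioglitazone, 1.31-fold with rosiglitazone and 1.51-fold with troglitazone, and in set 2 it was 1.59-fold with rosiglitazone and 1.60-fold with troglitazone. Group means were 8023 ± 213 (pioglitazone, SD, n = 2), 9375 ± 1128 (rosiglitazone, n = 3), 10325 ± 730 (troglitazone, n = 3) and 6701 ± 355 (vehicle, n = 3).

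With troglitazone, Cs rose 1.54-fold, a log2 difference of 0.62 ± 0.12 (SE, n = 3 against 3, limma adjusted p = 0.0145). The differences of 0.30 ± 0.14 with pioglitazone (1.23-fold, adjusted p = 0.485) and 0.48 ± 0.12 with rosiglitazone (1.39-fold, adjusted p = 0.0734) did not pass. The mean over the 3 drugs rose by 0.47 ± 0.10 (1.38-fold, adjusted p = 0.0216). Troglitazone was 0.32 ± 0.14 above pioglitazone (log2, 95% interval 0.02 to 0.61, adjusted p = 0.747), and the 3 troglitazone arrays were all above the 2 pioglitazone arrays.

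The troglitazone call of Cs ended without troglitazone replicate 2 (0.57, adjusted p = 0.113) or replicate 4 (0.64, 0.105), without vehicle replicate 1 (0.60, 0.0890) or replicate 4 (0.56, 0.132), and after quantile normalisation (0.48, 0.0752). That of the mean ended without rosiglitazone replicate 4 (0.43, adjusted p = 0.0712), troglitazone replicate 4 (0.48, 0.0650), or vehicle replicate 1 (0.45, 0.152), 2 (0.54, 0.0619) or 4 (0.41, 0.178). Each of the calls also ended without the set term, in set 1 alone, without the intensity trend of the model and without both arrays that stood apart. That of the mean also ended after quantile normalisation (0.29, 0.242), and that of troglitazone with only the groups compared. Over their alternatives the adjusted p ran from 0.0110 to 0.450 for troglitazone and from 0.0151 to 0.403 for the mean.

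Pcx did not pass with any drug. On its bright probe set the signal was 11140.7 and 11596.9 with pioglitazone, 10285.3, 9539.7 and 9672.9 with rosiglitazone and 10702.5, 7767.8 and 9211.4 with troglitazone, against 9081.4, 9715.9 and 8109.3 with vehicle. Pioglitazone was the only drug with all its arrays above all vehicle arrays. Log2 differences were 0.32 ± 0.15 with pioglitazone, 0.14 ± 0.13 with rosiglitazone and 0.03 ± 0.13 with troglitazone (SE, adjusted p 0.526, 0.771 and 0.999). The 95% interval with troglitazone was -0.25 to 0.32.

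The dim Pcx probe set read 662.4 and 1208.2 with pioglitazone, 636.9, 957.4 and 752.6 with rosiglitazone and 852.7, 742.6 and 526.5 with troglitazone, against 834.9, 660.7 and 837.4 with vehicle. All groups overlapped. The log2 differences were 0.16 ± 0.34 with pioglitazone, -0.003 ± 0.29 with rosiglitazone and -0.16 ± 0.29 with troglitazone (SE), none passing. Troglitazone against pioglitazone gave -0.29 ± 0.15 on the bright and -0.31 ± 0.34 on the dim probe set (adjusted p 0.858 and 0.960), and on the bright one all 3 troglitazone arrays were below both pioglitazone arrays.

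**Figure D3:**
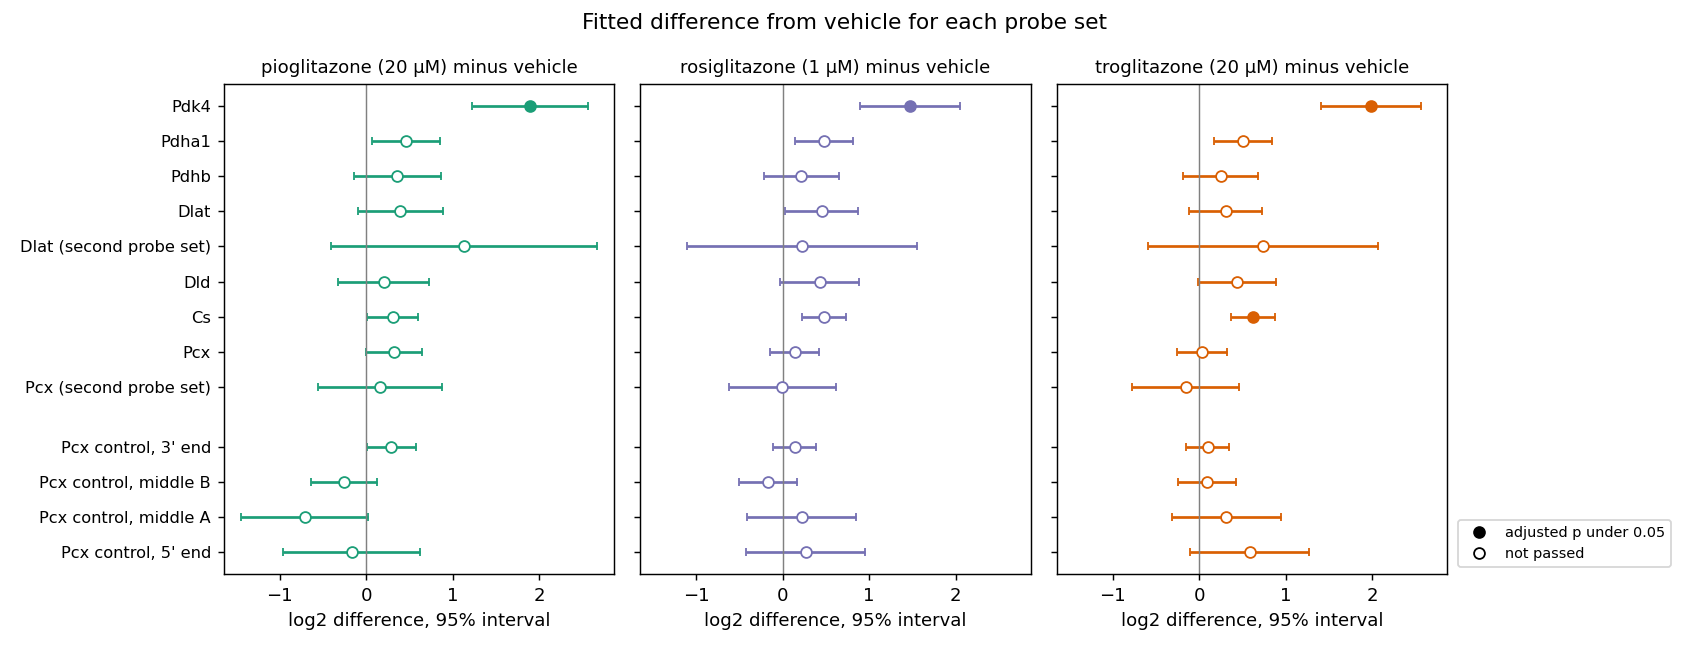
Fitted log2 difference from vehicle with its 95% interval (horizontal axis) for the 9 member and 4 control probe sets (vertical axis), in a panel for each drug. Filled points passed at an adjusted p under 0.05: Pdk4 with each drug, at 1.90, 1.47 and 1.99, and Cs with troglitazone, at 0.62.

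Counted over the 9 member probe sets, 1 rose with pioglitazone, where 0.63% of all tested probe sets rose, and 1 with rosiglitazone, where 0.784% did. With troglitazone 2 rose (0.775% of all), and 2 rose in the mean of the drugs (1.28%). None fell, where 0.273%, 0.571%, 0.554% and 0.86% of all tested probe sets fell with pioglitazone, rosiglitazone, troglitazone and the mean. In troglitazone against pioglitazone limma called 0 of 9 (0.0341% of all), and 1 of 9, Cs, had an unadjusted p under 0.05. This limma p of Cs, 0.0372, was the 584th smallest of all tested probe sets (adjusted p 0.747). Many other probe sets thus had a smaller p, and the count does not set the members apart. All 9 fitted differences were above 0 with pioglitazone and 8 with each other drug, as were 43.2%, 49.9% and 45.9% of those of all tested probe sets with pioglitazone, rosiglitazone and troglitazone. The members' median log2 difference was 0.36 with pioglitazone, 0.43 with rosiglitazone and 0.44 with troglitazone, against -0.08, 0 and -0.03 over all tested probe sets. These 9 probe sets share arrays and vehicle, and Dlat and Pcx each have 2 of them. The members were also chosen with earlier results of these data known, so these counts and medians are a description only.

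Groups that did not overlap, the drug being higher, were found for 4 of 9 member probe sets with pioglitazone (9.88% of all), 2 with rosiglitazone (5.42%) and 4 with troglitazone (5.13%). Pdk4 and Cs were among them each time. The other 2 were Pcx and the dimmer Dlat probe set with pioglitazone, and Dld and the dimmer Dlat probe set with troglitazone. Between troglitazone and pioglitazone, 1 member was separated upwards, Cs (8.65% of all), and 1 downwards, Pcx (10.6%).

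Pyruvate carboxylase carries a biotin group, and its 4 control probe sets lie, by their names, at the 3' end, at 2 middle positions and at the 5' end of its transcript. The 3' control had 21013.1 and 22907.9 with pioglitazone, 19317.8, 19202.5 and 18730.6 with rosiglitazone and 19281.7, 18878.6 and 17392.8 with troglitazone, against 18114.2, 18986.8 and 15054.6 with vehicle. The 5' control had 1806.6 and 602.6 with pioglitazone, 1267.5, 1652.7 and 280.1 with rosiglitazone and 1636.4, 1731.8 and 399.6 with troglitazone, against 1161.0, 1223.2 and 237.2 with vehicle. The drug and vehicle arrays overlapped on the 5' control, and the low values were the set 2 arrays and pioglitazone replicate 2. On the 4 controls limma called 0 differences from vehicle, where 0.873%, 1.27% and 1.3% of all probe sets were called with pioglitazone, rosiglitazone and troglitazone. The 3' control with pioglitazone had an unadjusted p of 0.0480 (adjusted p 0.499, log2 difference 0.29 ± 0.13).

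The 3' to 5' ratio of the carboxylase controls was 38.0 in pioglitazone replicate 2, 66.9 in rosiglitazone replicate 4, 43.5 in troglitazone replicate 4 and 63.5 in vehicle replicate 4. In the other 7 arrays it was 10.9 to 15.6. The middle controls split in the same way: middle A had 349.7 to 394.1 in set 2, against 742.9 to 3039.6 in set 1, and middle B had 1325.0 to 1783.6, against 3700.8 to 5732.5. On middle A the 742.9 was again pioglitazone replicate 2. In each drug group the brightest Pdk4 array was the one with the high ratio, and with vehicle it was not. With this ratio as a covariate the Pdk4 differences were 1.65 for pioglitazone (limma adjusted p = 0.0185), 1.54 for rosiglitazone (0.00543) and 2.25 for troglitazone (0.000712). Beyond the set term the ratio varied mainly through pioglitazone replicate 2 and among the set 2 arrays. The slope thus rests on few arrays, and the part of the ratio in the Pdk4 differences cannot be told apart here.

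**Figure D4:**
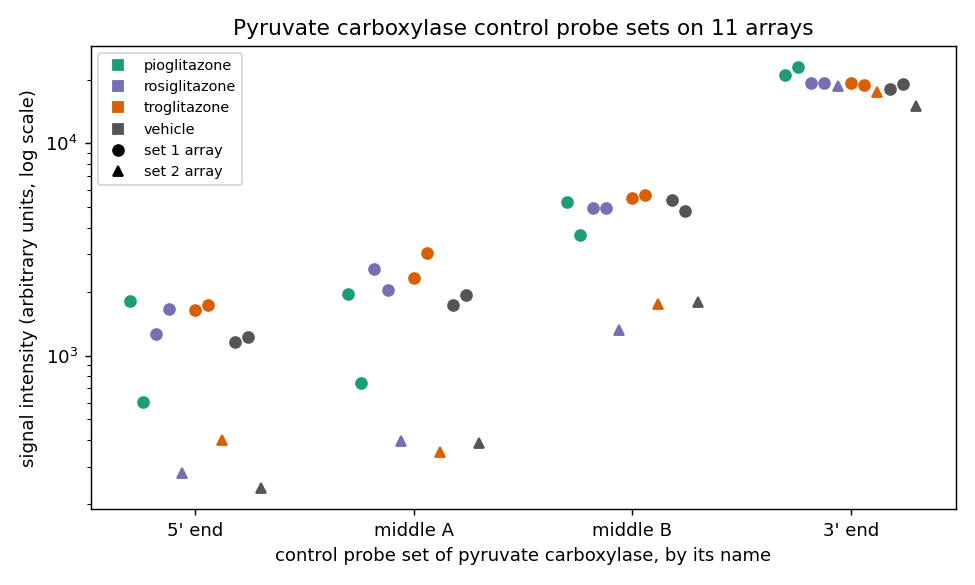
Signal intensity (arbitrary units, log axis) of the 4 pyruvate carboxylase control probe sets on the 11 arrays, from the 5' to the 3' end; colours give the group, circles set 1 and triangles set 2. Set 2 arrays lie lowest on the 5' and middle controls, at 237.2 to 399.6 on the 5' control, and less so at the 3' end.

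Other kinases and subunits of the complex were sparsely read: 3 of the 8 genes listed were tested, and none passed with any drug. Over all tested probe sets 0.63%, 0.784% and 0.775% rose with pioglitazone, rosiglitazone and troglitazone, and 0.273%, 0.571% and 0.554% fell. A count of 0 among 3 genes is near these shares and does not show that the genes did not respond. Pdk1, a kinase of the same family, averaged 903.0 ± 1.5 with pioglitazone (SD, n = 2), 1405 ± 445 with rosiglitazone (n = 3), 1616 ± 485 with troglitazone (n = 3) and 1283 ± 80.0 with vehicle (n = 3). Pdk3, another kinase, averaged 210.2 ± 41.6, 197.8 ± 47.3 and 315.8 ± 52.2 with pioglitazone, rosiglitazone and troglitazone, against 365.0 ± 77.6 with vehicle. The log2 differences from vehicle were -0.35, 0.09 and 0.30 for Pdk1 and -0.88, -0.89 and -0.20 for Pdk3, in the same order of drugs, with adjusted p from 0.544 to 0.983. Pdha2, the testis form of the catalytic subunit, was dim and did not pass either. The median of the 3 was -0.65, -0.89 and -0.20, against -0.08, 0 and -0.03 over all.

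Of 12 genes that supply pyruvate, 7 were tested. None rose with pioglitazone (0.63% of all tested probe sets rose), 1 with rosiglitazone (0.784%) and 2 with troglitazone (0.775%), and none fell. Ldha, a subunit of the lactate dehydrogenase that interconverts pyruvate and lactate, averaged 27108 ± 3576 with rosiglitazone and 28364 ± 3100 with troglitazone, against 17166 ± 865 with vehicle (SD, n = 3 each). It rose by 0.65 with rosiglitazone (log2, adjusted p = 0.0203) and by 0.72 with troglitazone (0.00903), and had 0.52 with pioglitazone (0.165). Pkm, the pyruvate kinase that makes pyruvate, averaged 18943 ± 3084 with troglitazone, against 11077 ± 1254 with vehicle, a rise of 0.77 (adjusted p = 0.00347) that no left-out array ended. A dimmer Pkm probe set gave 0.61 and did not pass (adjusted p = 0.112). The Ldha call with rosiglitazone ended without rosiglitazone replicate 1 or 4 or any vehicle array, and that with troglitazone without troglitazone replicate 2 or 4 or vehicle replicate 1 or 4 (adjusted p up to 0.155 and 0.101). The list's median was 0.23, 0.40 and 0.40 for pioglitazone, rosiglitazone and troglitazone.

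In citrate export and the malate cycle, 10 of 11 genes were tested. With pioglitazone 1 rose (0.63% of all tested probe sets), with rosiglitazone 2 (0.784%) and with troglitazone 0 (0.775%), and none fell against vehicle. Pck1, which draws on oxaloacetate to make phosphoenolpyruvate for glycerol synthesis in fat, averaged 6467 ± 192 with pioglitazone (SD, n = 2), 3669 ± 621 with rosiglitazone and 1655 ± 281 with troglitazone (n = 3 each), against 1574 ± 502 with vehicle (n = 3). It rose with pioglitazone (2.07, adjusted p = 0.000901) and with rosiglitazone (1.26, 0.0102), and had 0.11 with troglitazone (0.975). Troglitazone was below pioglitazone on Pck1 by a log2 difference of -1.96 (adjusted p = 0.00851), where Pdk4 gave 0.10. The rosiglitazone call ended without its replicate 1 or 2 (adjusted p up to 0.108). The difference between the 2 drugs lost its call without either pioglitazone array, rosiglitazone replicate 1, or troglitazone replicate 1 or 4 (up to 0.236).

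Mdh2, the mitochondrial malate dehydrogenase that makes oxaloacetate, rose by 0.47 with rosiglitazone (log2, adjusted p = 0.0458). The call ended on leaving out any array but the 2 of pioglitazone (up to 0.203). Acly, which splits exported citrate into acetyl-CoA, averaged 5164 ± 1622 with pioglitazone (SD, n = 2), 4357 ± 795 with rosiglitazone and 3721 ± 665 with troglitazone (n = 3 each), against 5719 ± 160 with vehicle (n = 3). No Acly difference passed (-0.10, -0.41 and -0.63, adjusted p 0.943, 0.395 and 0.114). The median over the 10 genes was -0.01, 0.03 and -0.21 for pioglitazone, rosiglitazone and troglitazone.

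Complexes that use Dld or the same kind of lipoyl arm had 7 of 9 genes tested. Of these, 1 rose with pioglitazone (0.63% of all tested probe sets), the same 1 with rosiglitazone (0.784%) and none with troglitazone (0.775%). That gene was Ogdh, the decarboxylase of the ketoglutarate dehydrogenase complex. Its mean signal was 3456 ± 67.5 with pioglitazone (SD, n = 2), 2952 ± 180 with rosiglitazone and 2587 ± 61.2 with troglitazone (n = 3 each), against 1743 ± 242 with vehicle (n = 3). The log2 differences were 1.03 (adjusted p = 0.00680), 0.77 (0.0150) and 0.58 (0.0798) for pioglitazone, rosiglitazone and troglitazone. The pioglitazone call ended without pioglitazone replicate 1 or vehicle replicate 1 (up to 0.0560), and the rosiglitazone call without rosiglitazone replicate 1 or vehicle replicate 1 or 2 (up to 0.0939). Dlst, the partner that corresponds to Dlat there, had 0.59, 0.72 and 0.42 and did not pass. Of the biotin enzymes listed with Pcx, 3 of 8 were tested (Mccc1, Pccb and Btd, the enzyme that recycles biotin), and none passed. Over all tested probe sets 0.63%, 0.784% and 0.775% rose with pioglitazone, rosiglitazone and troglitazone, and 0.273%, 0.571% and 0.554% fell.

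**Figure D5:**
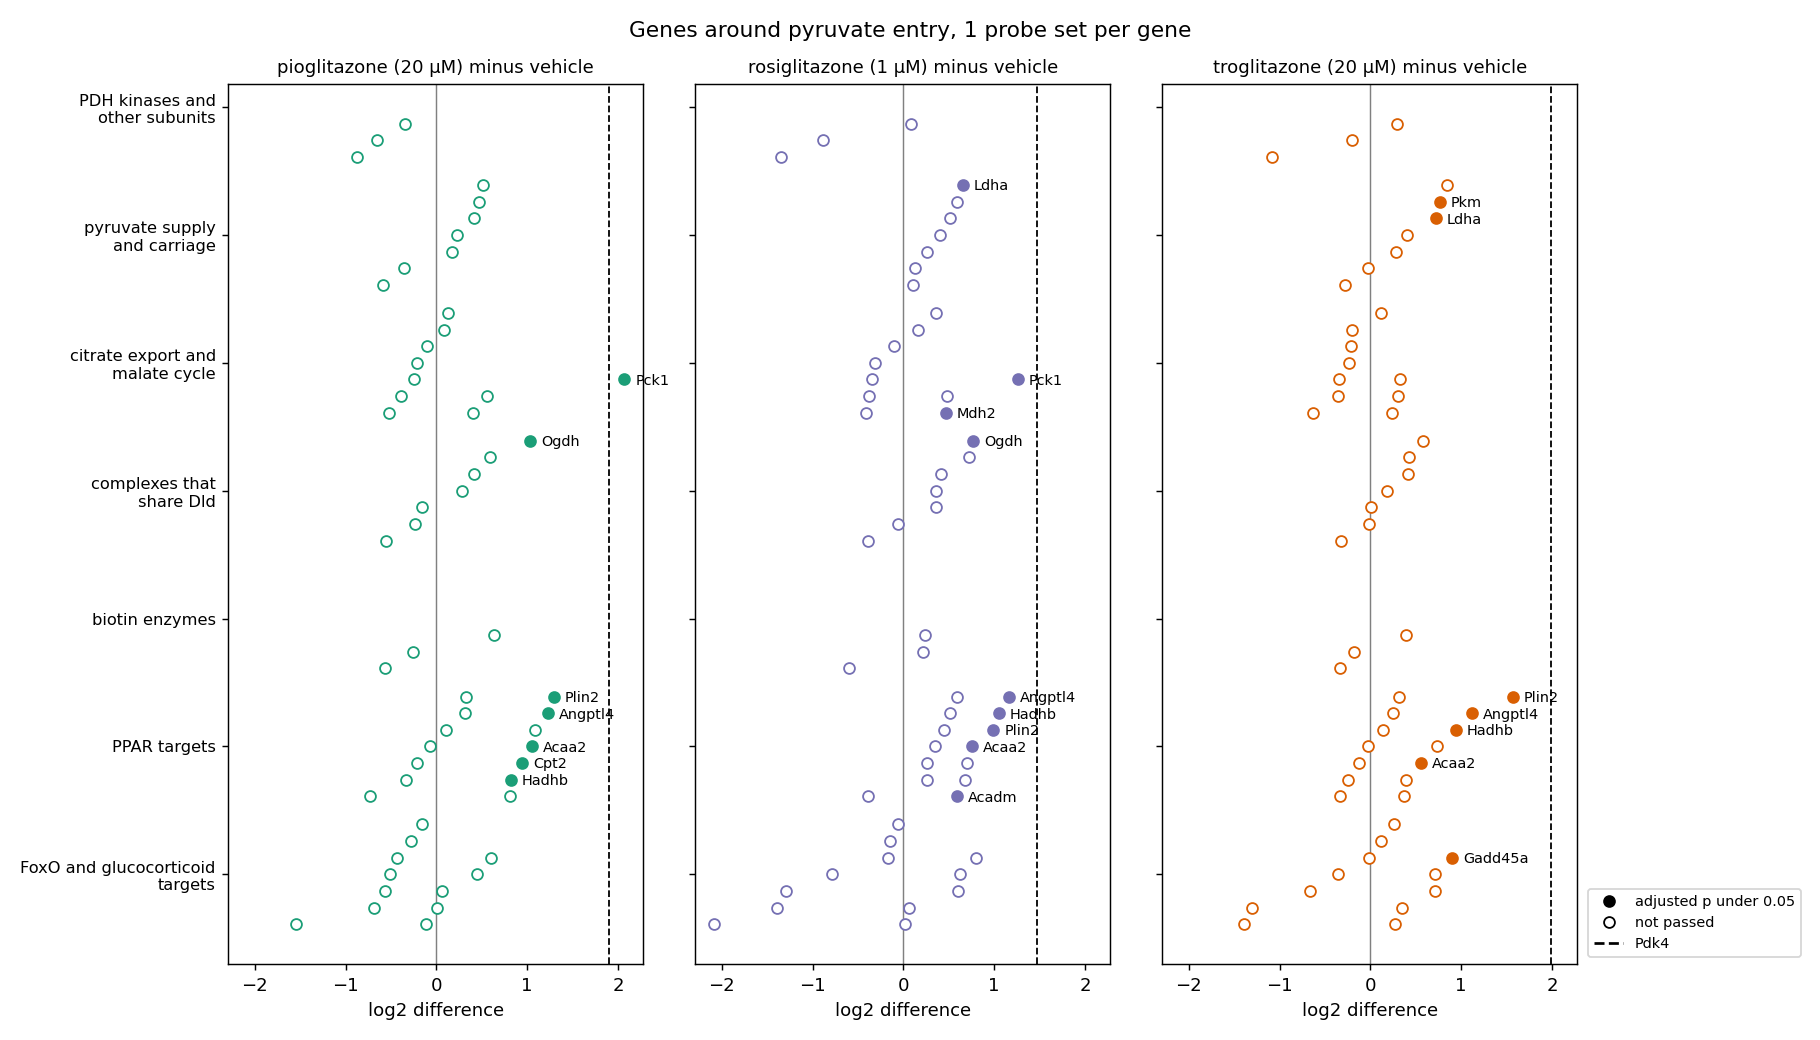
Fitted log2 difference from vehicle (horizontal axis) of each tested gene in 7 lists around pyruvate entry (vertical axis, 1 probe set per gene, points spread for legibility), in a panel per drug. Filled, named points passed at an adjusted p under 0.05 and the dashed line marks Pdk4, at 1.90, 1.47 and 1.99; of the genes in these lists Pck1 with pioglitazone, at 2.07, is the one filled point beyond it.

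Pdk4 is known as a PPAR target, and 14 of 18 other such genes were tested: 5 rose with pioglitazone, 5 with rosiglitazone and 4 with troglitazone, and none fell. Of all tested probe sets 0.63%, 0.784% and 0.775% rose, and the list was drawn up with earlier results of these data known. Its median was 0.57, 0.59 and 0.34, against -0.08, 0 and -0.03 over all. Plin2, a lipid droplet coat protein, averaged 23000.0 ± 2836 with pioglitazone (SD, n = 2), 16907 ± 1594 with rosiglitazone and 25566 ± 5173 with troglitazone (n = 3 each), against 8683 ± 2185 with vehicle (n = 3). It rose by 1.29, 0.99 and 1.57 on the log2 scale, and Angptl4, a secreted inhibitor of lipoprotein lipase, by 1.23, 1.16 and 1.12, without any left-out array ending a call. Another bright Angptl4 probe set rose as well, while 2 further ones did not pass and 1 of these ran lower with each drug (-0.71, -0.94 and -1.65).

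The mitochondrial thiolase genes of fatty acid oxidation in this list also rose with each drug. Hadhb rose by 0.82 with pioglitazone, 1.05 with rosiglitazone and 0.94 with troglitazone (log2 difference). The first of these calls ended without pioglitazone replicate 1 or vehicle replicate 1 or 2 (adjusted p up to 0.0977). Acaa2 rose by 1.05, 0.76 and 0.56. Its rosiglitazone call ended without rosiglitazone or vehicle replicate 4 (up to 0.0617), and its troglitazone call ended on leaving out any array but those of pioglitazone (up to 0.253).

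FoxO and glucocorticoid targets, the other classes in which Pdk4 is placed, had 12 of 15 genes tested. None rose with pioglitazone (0.63% of all tested probe sets) or rosiglitazone (0.784%), 1 rose with troglitazone (0.775%), and none fell. Gadd45a, a stress-induced growth arrest gene, averaged 3039 ± 513 with troglitazone, against 1623 ± 248 with vehicle (SD, n = 3 each), a rise of 0.90 (log2, adjusted p = 0.0366). That call ended on leaving out any rosiglitazone or troglitazone array or vehicle replicate 2 or 4 (up to 0.247). Cited2, a transcriptional coregulator, averaged 218.6 ± 76.7, 176.0 ± 104 and 279.9 ± 57.1 with pioglitazone, rosiglitazone and troglitazone, against 684.3 ± 110 with vehicle, and did not pass (adjusted p 0.367, 0.0691 and 0.458). The list's median was -0.22, -0.11 and 0.19.

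Across the 11 arrays, with each set's mean removed from the log2 signal, the member most like Pdk4 was Cs (Pearson r = 0.85), followed by Pdha1 (0.80), Dld (0.70), Pdhb (0.68), the brighter Dlat probe set (0.61), Pcx (0.37), the dimmer Dlat probe set (0.33) and the dimmer Pcx probe set (-0.10). These points share arrays, scaling and the split between drug and vehicle cells, so r describes the pattern and is given without a test. Over the 11738 other tested probe sets the median r was -0.05, 137 exceeded 0.8 and 18 exceeded 0.9. The 5 most alike were Saraf (0.963), a regulator of calcium entry, Nectin2 (0.957), a cell adhesion molecule, Pde4dip (0.949), a centrosome and Golgi protein, Gars (0.946), the glycyl-tRNA synthetase, and Cox6a2 (0.929), the muscle form of a cytochrome c oxidase subunit.

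These 5 were picked for their likeness to Pdk4 on the same arrays, and that pattern is largely the split between drug and vehicle, so their differences are given as a description with no test. All lay under those of Pdk4. The log2 differences with pioglitazone, rosiglitazone and troglitazone were 1.14, 1.03 and 1.41 for Cox6a2, 0.83, 0.93 and 1.13 for Nectin2, and 0.84, 0.73 and 0.82 for Gars. Saraf and Pde4dip had differences of 0.41 to 0.56.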

How the data were processed

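Total RNA of 11 samples was measured on one-colour oligonucleotide arrays, 1 array per sample. The authors deposited 1 linear signal intensity per probe set, between 0.4 and 224475. Which software summarised the probe pairs, and how the authors scaled the arrays, is not given in the sources used here. After 2% of values was trimmed from both tails, array means spanned 500.289 to 500.433, so the deposited intensity values had been scaled and were kept so. A floor at the 25th percentile of all values, 73.7, was applied before log2 was taken. Of the tested values 21.0% lay at this floor, which limits how large a fall a dim probe set can show.

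Without the 66 control probe sets 12422 remained, and the 11739 exceeding the floor on 2 or more arrays entered the tests. Of the 12422, 10833 are annotated to 1 gene, 396 to several and 1193 to none. The files name no genome build. Promoter sequences and coordinates are from RefSeq, GRCm38.p6.

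Differences came from limma 3.58.1 in R 4.3.3 with a term per group and a set term (6 residual degrees of freedom) and an intensity trend, two-sided, with Benjamini-Hochberg adjustment within each contrast. On simulated data for troglitazone against vehicle (11739 probe sets, 200 of them changed) 10% of 2-fold and 47% of 4-fold changes were recovered, with 2 false calls. The set difference is an interaction of drug and set. The control probe sets were fitted in the same model with controls kept. Precision is limited by the number of arrays.

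All members are named. A list gene is its brightest tested probe set, and up to 4 genes per list with the smallest p were described. Marker genes described singly were chosen after their values were seen. The 5 genes most like Pdk4 were taken by Pearson r. The members and lists were chosen with earlier results of these data known. Numbers shared between groups showed no sign of pairing the set 1 arrays: deviations from the group means correlated between -0.04 and 0.01. With 2 arrays a group this cannot exclude pairing, and the labels do not state it. Alternatives were other scalings, floors, filters, models and covariates, and leaving out each array in turn.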

Additional observations from a re-analysis of the deposited data

How the results depend on the processing

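Pdk4 kept its direction against vehicle in all 25 alternatives for each drug and all 24 for their mean. It lost its call with no filter on dim probe sets for pioglitazone (1.90, adjusted p 0.0948) and rosiglitazone (1.47, 0.109), with no set term (1.74, 0.0661 and 1.47, 0.0670), and with only the groups compared (1.76, 0.408 and 1.47, 0.265). Set 1 alone gave 1.76 (pioglitazone, 0.144), 1.16 (rosiglitazone, 0.326), 1.90 (troglitazone, 0.0963) and 1.60 (mean, 0.0574). Without the intensity trend the differences were 1.90 (0.250), 1.47 (0.203), 1.99 (0.0897) and, for the mean, 1.79 (0.0613). Without pioglitazone replicate 2 and rosiglitazone replicate 2 together, the arrays that stood apart, pioglitazone gave 1.51 (0.0521). Leaving out single arrays gave 1.57 to 2.23 for pioglitazone, 1.20 to 1.83 for rosiglitazone and 1.79 to 2.19 for troglitazone. Some of these fits held fewer samples or more probe sets than the main fit. Those without the set term or the intensity trend held the same ones. The cause of the lost calls was not tested.

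Of the 9 member probe sets, those called under the alternatives named here fell to 0 with pioglitazone and rosiglitazone wherever Pdk4 was lost, and to 0 with troglitazone and the mean in set 1 alone and without the trend. With troglitazone 1 was called after quantile normalisation, without the set term, with only the groups compared and without the 2 arrays, and with the mean 1 was called under these except the fit of only the groups compared. Rosiglitazone called 2 with the floor at the 50th percentile. Single arrays left out gave 0 to 1 with pioglitazone and rosiglitazone, 1 to 2 with troglitazone and 1 to 3 with the mean. Over all tested probe sets limma called 106, 159, 156, 4 and 251 for pioglitazone, rosiglitazone, troglitazone, troglitazone against pioglitazone and the mean, and ran over the alternatives from 0 to 141, 6 to 183, 19 to 165, 0 to 25 and 30 to 280.

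Among called probe sets the share higher with pioglitazone was 69.8%, against 48.8% after quantile normalisation and 87.2% after median centring. For troglitazone the shares were 58.3%, 51.1% and 69.7%, and for the mean 59.8%, 50.7% and 70.9%. With the replicate number as a block in place of the set term, Pdk4 gave 1.90, 1.47, 1.99 and 1.79 (limma adjusted p 0.00972, 0.0171, 0.00125 and 0.000683). The calls over all probe sets were then 114, 162, 144 and 247. Whether the numbers pair these arrays is not stated by the labels. Of 1452 values recomputed, 77 changed sign, 0 of them where a call stood, in 25 results. For Pdk4 these were troglitazone minus pioglitazone, given above, and the set difference for troglitazone after quantile normalisation (-0.00129).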
